A study of Rattus norvegicus with 300 samples.

Results

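Collagen genes were followed across 10 regions of the rat brain under 6 drinking-water treatments. A gene was taken as a member when its whole symbol had the form Col, a number, a and a number, and 27 of the 17337 symbols in the count table did. Frozen punches of 1 region were pooled for each library, RNA was sequenced as total RNA with a stranded kit, and each of the 60 groups (10 regions under 6 treatments) had 5 libraries, 300 in all. The animals were male Long Evans rats of 60 days of age, treated for 3 weeks. The groups were FT at 13 mg/kg/day (the label is not spelled out, and the treatment protocol lists fluoxetine among the drugs), Bupropion (15 mg/kg/day), then Desipramine with a daily 7.5 mg/kg, Probiotics, Maltodextrin at 10 g/L, which is the carrier of the Probiotics, and Control animals on water alone. The regions are named as labelled: mPOA, CGC, ILC, PLC, NACShell, BLA, dorDG, venDG, LConly and Raphe. Nothing in the labels says how many animals went into a pool, so p-values measure the spread between these libraries, which may be in part technical, and in such tissue fewer cells of a type and less RNA per cell cannot be told apart. Col4a2, Col6a1, Col19a1 and Col25a1 were not analysed here.

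Collagens are triple-helical proteins of the extracellular matrix, built from chains that are hydroxylated and folded in the endoplasmic reticulum, trimmed outside the cell and crosslinked. In the brain, fibrillar collagens lie mainly in the meninges and around larger vessels, basement membrane collagens surround the endothelium, and several transmembrane and fibril-associated chains are made by neurons, where some organise synapses. The 27 members were sorted into fibrillar collagens (Col1a1, Col1a2, Col2a1, Col3a1, Col5a1, Col5a2, Col5a3, Col11a1, Col11a2 and Col27a1), collagens of the basement membrane zone (Col4a1, Col4a3, Col4a4, Col7a1, Col15a1 and Col18a1), transmembrane collagens, called neuronal here (Col13a1, Col17a1 and Col23a1), beaded filament collagens (Col6a2 and Col6a4), fibril-associated collagens (Col9a1, Col9a2, Col14a1 and Col16a1) and others (Col8a1 and Col26a1). Over all 300 libraries a member collected from 1170 counts (Col6a4) to 64015 counts (Col11a2). Col1a2 had 1838 counts and Col1a1, the chain it assembles with in type I collagen, had 45809. Levels are given as CPM, the count divided by the library's total and scaled to 1000000, which do not allow for gene length, so they are compared between samples and not between genes.

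Promoter sequences are shown for Col4a3 and Col4a4, a neighbouring pair, and for Col11a2 and Col8a1, whose changes with treatment are described further on. RefSeq (build GRCr8) has a promoter entry, from 250 bases before to 50 bases after the start, for 22 of the 27 members. Col4a3 and Col4a4, 2 chains of 1 basement membrane heterotrimer, start 413 bases apart on opposite strands of chromosome 9, and their promoter windows share the 88 bases written in capitals. The windows are chr9:91323740-91324039 on the + strand for Col4a3 and chr9:91323528-91323827 on the - strand for Col4a4.
Col4a3: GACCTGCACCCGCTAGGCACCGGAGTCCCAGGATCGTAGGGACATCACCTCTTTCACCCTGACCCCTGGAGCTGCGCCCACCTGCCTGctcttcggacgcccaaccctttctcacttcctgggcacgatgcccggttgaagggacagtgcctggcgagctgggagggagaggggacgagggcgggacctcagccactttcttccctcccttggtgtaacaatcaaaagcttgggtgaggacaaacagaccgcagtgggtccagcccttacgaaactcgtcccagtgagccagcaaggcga
Col4a4: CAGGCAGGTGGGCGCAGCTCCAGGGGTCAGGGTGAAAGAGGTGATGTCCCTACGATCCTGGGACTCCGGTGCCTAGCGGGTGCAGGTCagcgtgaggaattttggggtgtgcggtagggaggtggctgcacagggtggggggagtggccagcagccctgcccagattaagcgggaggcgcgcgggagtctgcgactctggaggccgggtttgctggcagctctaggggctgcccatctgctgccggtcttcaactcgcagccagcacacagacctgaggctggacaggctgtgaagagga
Col11a2 (chr20:4817599-4817898, - strand) was called higher under FT. Col8a1 (chr11:56246532-56246831, + strand) was called higher than Control under all 3 drugs and under Maltodextrin. The Col8a1 calls under Desipramine and Maltodextrin did not hold in every setting, as given further on. In these windows capitals mark matches of CCAAT and GGGCGG on either strand.
Col11a2: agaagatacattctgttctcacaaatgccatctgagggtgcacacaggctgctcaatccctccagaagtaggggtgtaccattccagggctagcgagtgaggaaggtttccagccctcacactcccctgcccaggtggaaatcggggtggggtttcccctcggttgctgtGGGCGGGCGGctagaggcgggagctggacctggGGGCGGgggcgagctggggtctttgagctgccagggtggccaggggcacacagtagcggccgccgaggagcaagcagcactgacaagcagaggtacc
Col8a1: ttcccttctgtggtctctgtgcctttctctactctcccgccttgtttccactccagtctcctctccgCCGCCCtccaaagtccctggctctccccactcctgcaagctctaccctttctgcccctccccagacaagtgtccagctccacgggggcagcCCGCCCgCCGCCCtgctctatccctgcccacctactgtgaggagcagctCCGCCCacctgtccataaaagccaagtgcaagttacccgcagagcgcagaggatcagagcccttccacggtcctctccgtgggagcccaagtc
GGGCGG, the core letters of the GC box, was found on either strand in 12 of the 22 members' windows, against 33.1% of all 33469 RefSeq promoters of this length. CCAAT was found in 6 of 22, against 37.5% of all promoters, and TATAAA in 3 of 22, against 14.2%. The GC content of the members' windows ran from 41.7% to 75% with a median of 62.3%, against a median of 51.7% over all promoters. A match is a string of letters and was not tested for use by a factor.

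The 300 libraries held 198260 to 18310687 counts. Of the 4 libraries under 1000000 counts, all were from Desipramine (BLA replicate 3, NACShell replicate 1, dorDG replicate 1 and CGC replicate 1). Some groups stood apart from the rest, and their part in the results was not tested unless a value without them is given. The libraries labelled FT ILC and FT LConly went against their labels: Dbh, which marks noradrenergic neurons of the locus coeruleus, averaged 0.65 CPM in FT LConly and 255 CPM in FT ILC, against 62.5 to 276 CPM in LConly and 0.31 to 1.52 CPM in ILC of the 5 other treatments. Tbr1, a marker of deep cortical neurons, averaged 18.1 CPM in FT LConly, against at most 1.49 CPM in LConly of the others. The markers of Raphe (Tph2, 453 to 760 CPM) and of NACShell (Drd1, 176 to 336 CPM) were present in the libraries so labelled under every treatment. Summed antigen presentation genes reached 863 CPM in Control BLA and 920 CPM in Control venDG, and Control ILC had a summed fibroblast marker level of 334 CPM, against 160 to 211 CPM in ILC of the others. Prox1, the marker of dentate granule cells, was at 29.6 CPM in Probiotics dorDG, against 68.0 to 88.9 CPM in dorDG of the others. All 10 libraries of FT replicate 1 were shallow, at 3511756 to 4807308 counts, and this replicate lay far from the other 4 for many members, as the values below show.

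Collagen expression differed between brain regions for nearly every member. The fibrillar genes of meninges and vessels (Col1a1, Col1a2, Col3a1) were higher in mPOA, CGC and ILC and lower in dorDG and Raphe, the cartilage-type chain Col2a1 was highest in mPOA and Raphe, and the transmembrane Col23a1 was highest in BLA. Counts were summed over the 5 libraries of each group, and regions were compared across the 6 treatments with edgeR's quasi-likelihood test. Of 27 members, 26 differed between regions at an adjusted p under 0.05, where 92% of all genes tested did. Col6a4 did not (adjusted p = 0.11). Each region was then set against the mean of the other 9.

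In mPOA, 15 members were higher and 1 was lower, where 23.2% and 23% of all genes were. Col2a1 averaged 5.48 ± 1.7 CPM in mPOA (SD over 6 treatment means), against 1.90 CPM in Raphe and 0.218 CPM in PLC, and was higher than in the other regions by 3.13 ± 0.23 on the log2 scale (± SE, adjusted p = 4.6e-16). Col3a1, the type III chain of vessel walls and meninges, averaged 41.8 ± 20 CPM in mPOA and 5.18 CPM in dorDG, and Col1a1 averaged 36.6 ± 13 CPM in mPOA and 6.99 CPM in dorDG. The log2 differences of mPOA from the other regions were 1.64 ± 0.18 for Col3a1 and 1.46 ± 0.16 for Col1a1. Among the 10 fibrillar members, 8 were higher and 1 was lower in mPOA, with a median log2 difference of 1.10. The lower one was Col27a1 at -0.49, a call that ended on leaving out single treatments or replicates. The large SD of Col1a1 and Col3a1 in mPOA came with treatment: in the plot of all libraries, the means of the 3 drug groups lie below those of the other 3 groups there. Of the 15 fibroblast markers, 12 were higher in mPOA and none was lower, while 4 of 12 endothelial markers were lower and none higher, and the part of these cells in the result was not tested.

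In CGC, 14 members were higher and 2 were lower, where 22% and 18.3% of all genes were. Col1a1 averaged 31.8 ± 3.8 CPM in CGC and was higher there by 1.34 on the log2 scale. Col6a2, a chain of the type VI microfibrils, was higher by 1.25, and Col1a2 by 1.12. The 2 lower members were Col2a1 (-1.32) and Col11a1 (-1.13), which are both minor or cartilage-type chains. All 12 endothelial markers and 13 of 15 fibroblast markers were higher in CGC too. Without Maltodextrin the members called higher in CGC numbered 8.

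BLA had 12 members higher and 2 lower, where 22.6% and 17.6% of all genes were. Its highest members were Col23a1 (1.91 on the log2 scale, 1.77 CPM in BLA against 0.103 CPM in Raphe), Col9a1 (1.39, 4.67 CPM in BLA against 0.538 CPM in venDG) and Col7a1, the anchoring fibril collagen (1.25). The Col7a1 value rests in part on 1 shallow library, Desipramine BLA replicate 3, at 156 CPM where the other 4 were at 1.03 to 1.98 CPM. Type I chains were lower in BLA, Col1a2 at -1.24 and Col1a1 at -0.80. Of the 6 basement membrane members, 4 were higher in BLA and none was lower, Col18a1 by 1.06, while 9 of 15 fibroblast markers were lower.

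The remaining regions had fewer high collagens. In dorDG, 4 members were higher and 9 lower, where 22.2% and 22.4% of all genes were. Col8a1 (-2.27), Col3a1 (-1.65) and Col9a1 (-1.57) were its lowest, and Col23a1 (1.14), Col11a2 (0.63) and Col16a1 (0.48) its highest, the last a call that ended on leaving out single treatments or replicates. In venDG, 1 member was higher and 7 lower, where 17.2% and 17.9% of all genes were. The higher one was Col8a1, a short-chain network collagen, at 7.46 ± 4.2 CPM in venDG and 0.954 CPM in dorDG (log2 difference from the other regions 1.51). Col9a1 (-1.70), Col14a1 (-1.18) and Col2a1 (-1.13) were the lowest. All 9 choroid plexus markers tested were higher in venDG as well, and the part of that tissue was not tested.

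In NACShell, 4 members were higher and 5 lower, where 13.6% and 11.9% of all genes were. Col11a1, a minor chain that nucleates fibrils, led with a log2 difference of 1.34 and averaged 30.5 ± 11 CPM there, against 4.44 CPM in PLC. Col9a1 (0.68) and Col14a1 (0.62) followed, and Col8a1 (-2.04), Col23a1 (-1.17) and Col5a1 (-0.71) were the lowest. Raphe had 3 members higher and 10 lower, where 26.2% and 26.8% of all genes were, with Col2a1 (1.69), Col9a2 (0.48) and Col16a1 (0.44) higher and Col23a1 (-2.37), Col9a1 (-1.50) and Col1a2 (-1.47) at the low end. In PLC, 3 were higher and 7 lower, where 20.8% and 20.2% of all genes were, Col9a1 (1.44), Col1a2 (0.98) and Col8a1 (0.87) being higher and Col2a1 (-1.84), Col11a1 (-1.56) and Col9a2 (-0.66) the lowest. ILC had 4 higher and 7 lower, where 17.4% and 16.2% of all genes were, with Col1a2 (1.34), Col3a1 (1.08) and Col9a1 (0.99) at the top and Col5a3 (-0.96), Col11a1 (-0.95) and Col11a2 (-0.93) at the bottom. LConly had 2 higher and 1 lower, where 21.4% and 17.9% of all genes were. They were Col2a1 (0.71), Col4a3 (0.40) and Col5a3 (-0.58). The calls named in NACShell other than those of Col11a1 and Col8a1, those of Col9a2 and Col16a1 in Raphe, of Col2a1 in venDG, and of Col2a1 and Col4a3 in LConly ended on leaving out single treatments or replicates.

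The counts for LConly depended on the FT libraries. Without FT ILC and FT LConly, 4 members were higher and 9 lower in LConly, and leaving out any 1 of Bupropion, Desipramine, Probiotics or Maltodextrin left 1 called. For NACShell, 9 calls became 4 without Desipramine and 5 without Bupropion, without Probiotics or without Control. In ILC, 7 lower members became 4 without Bupropion, Desipramine, Maltodextrin or Control. In venDG, 8 calls became 13 without the 6 groups that stood apart. Over all regions 113 calls were made, 128 without FT ILC and FT LConly and 143 without those 6 groups.

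**Figure D1:**
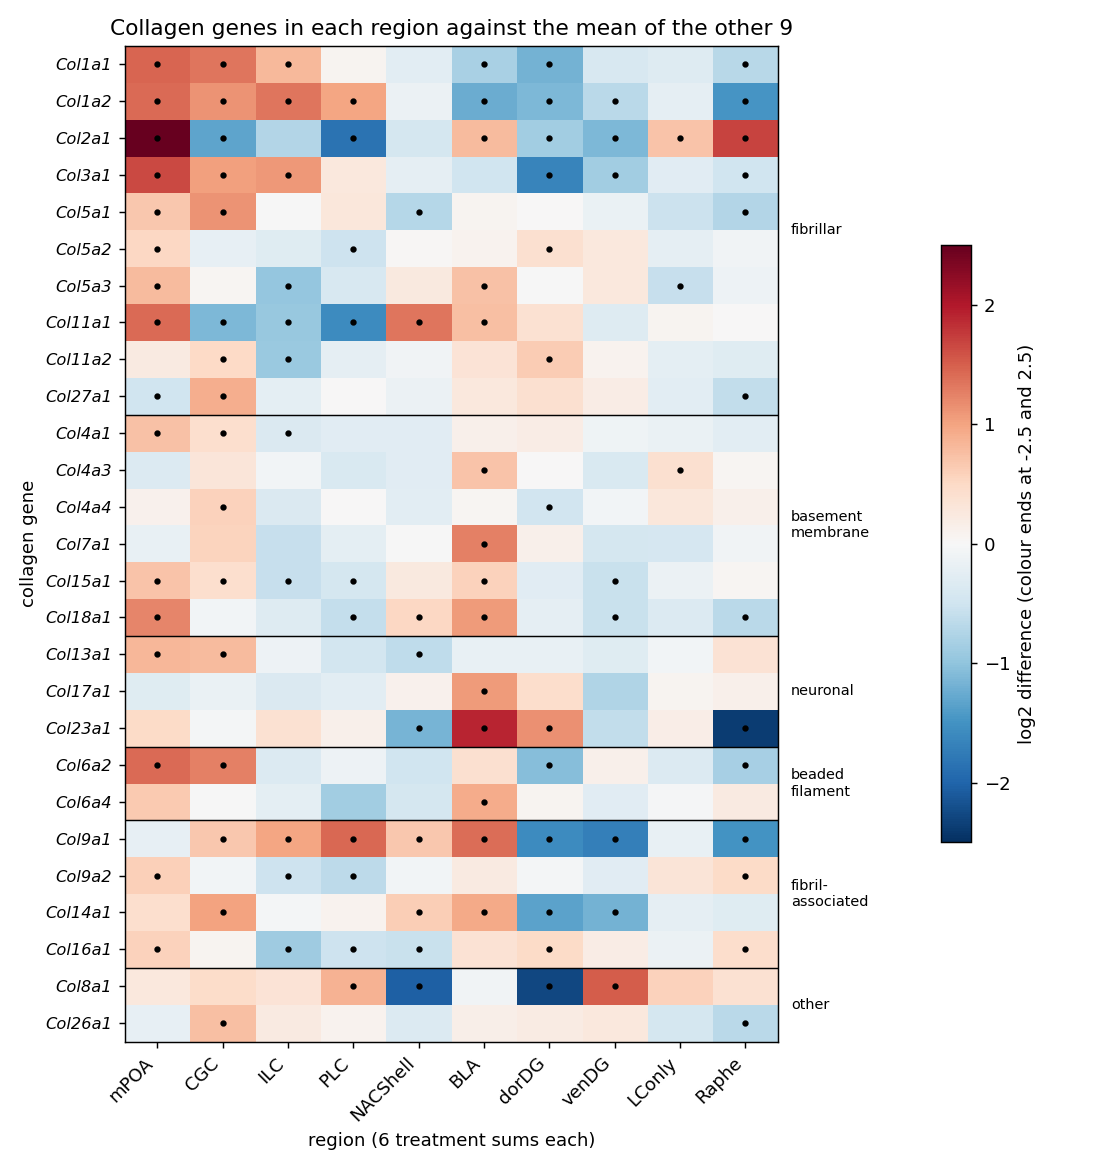
Log2 difference of each collagen gene (rows, grouped by class) in each region (columns) from the mean of the other 9 regions, from 6 treatment sums a region; a dot marks an adjusted p under 0.05. The column of mPOA holds 15 dots on the higher side, and Col23a1 spans from 1.91 in BLA to -2.37 in Raphe.

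**Figure D2:**
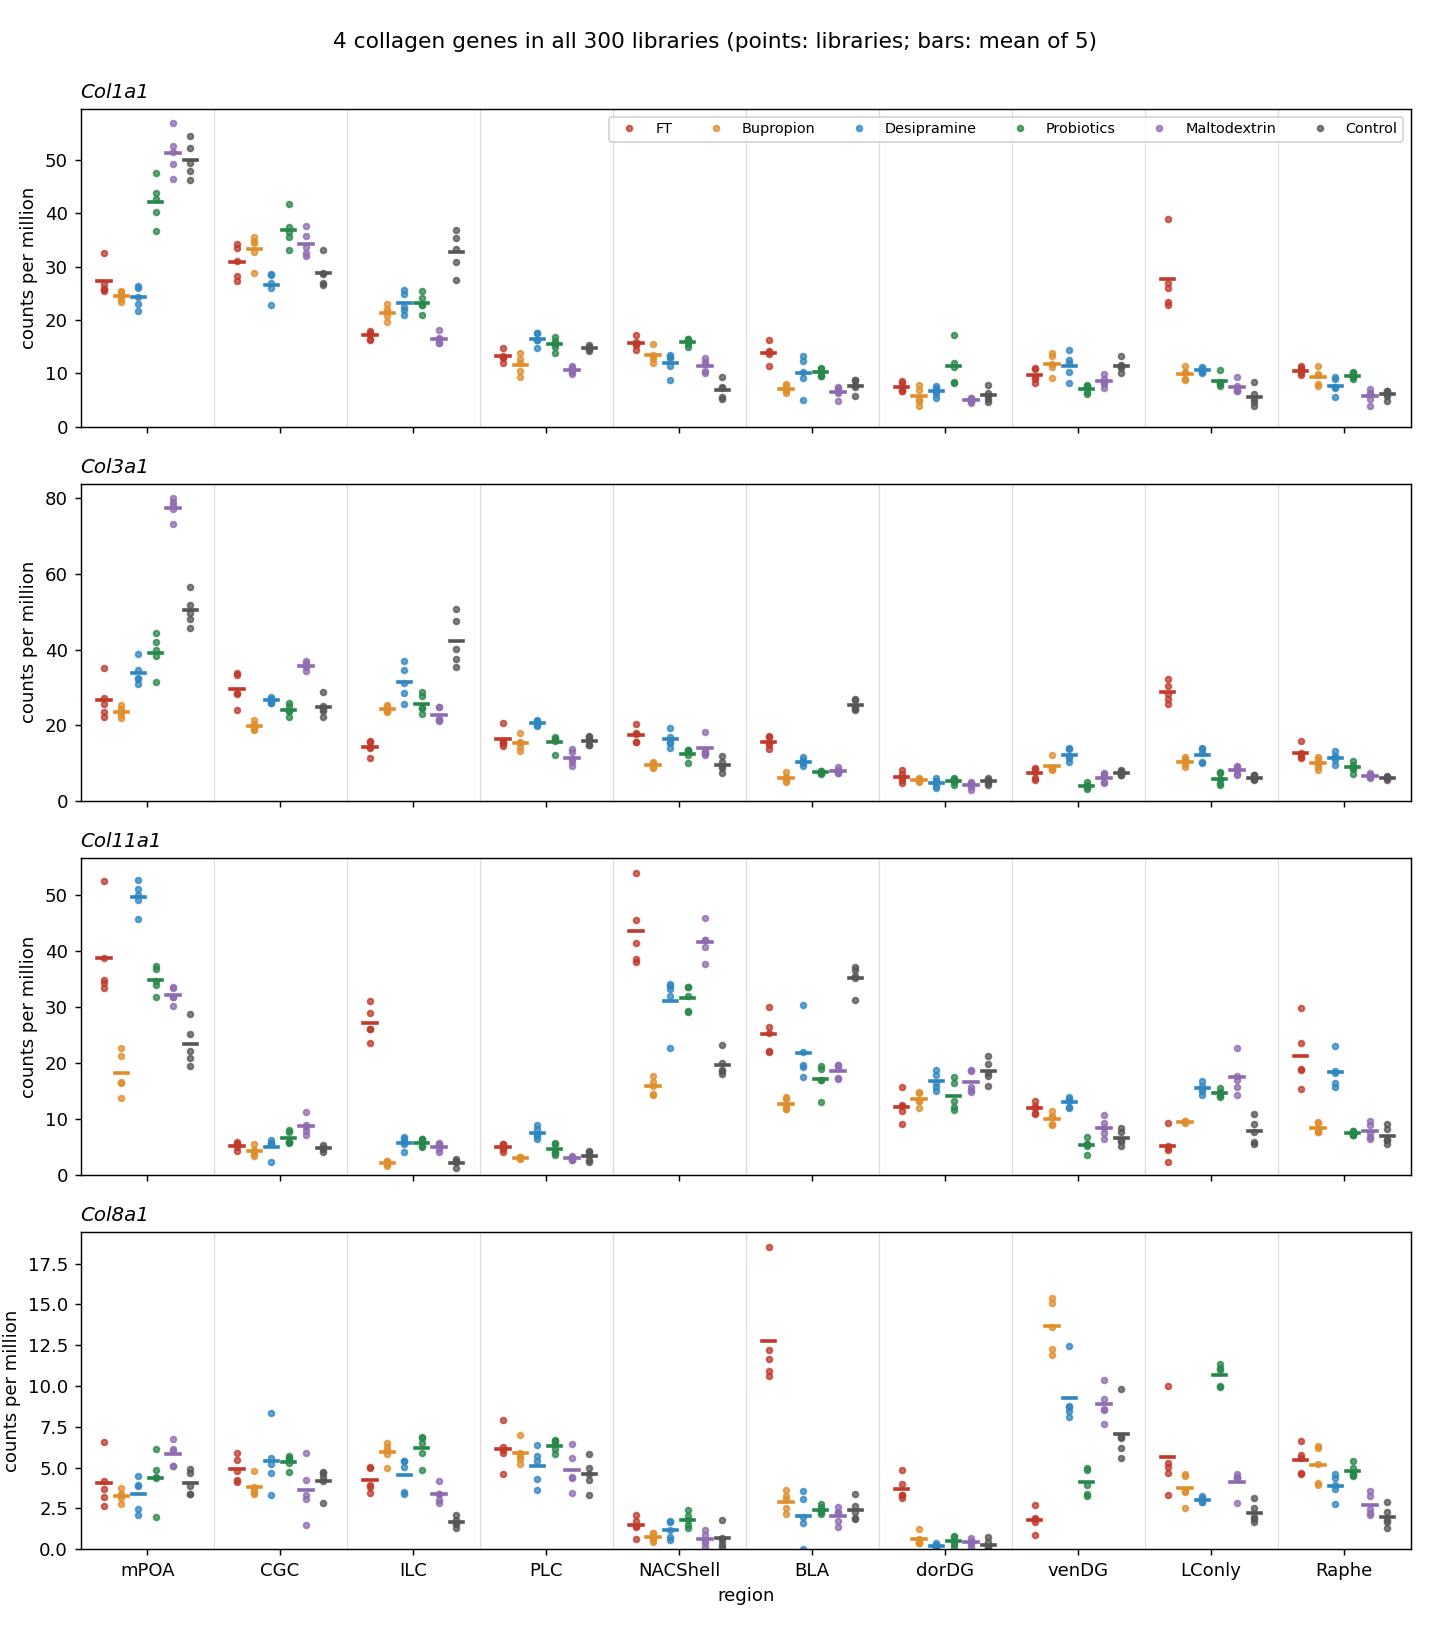
CPM of Col1a1, Col3a1, Col11a1 and Col8a1 (linear y axes) in all 300 libraries by region (x axis) and treatment (colour, FT at the left and Control at the right of each region); each point is 1 library and each bar the mean of 5. In mPOA the Col1a1 points of FT, Bupropion and Desipramine lie at 21.7 to 32.6 CPM, all below Control at 46.2 to 54.5 CPM, and FT ILC is the highest ILC group for Col11a1.

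Under FT more collagens were higher than lower over all regions. Col11a2 and Col11a1 (type XI chains), Col8a1, Col5a3 and the fibril-associated Col16a1 rose most clearly, while Col1a1, Col3a1, Col6a2 and Col18a1 were called lower, calls that were not made with equal region weight. To compare treatments, counts were summed over the 10 regions of each treatment replicate and tested with edgeR's quasi-likelihood test against 5 Control replicates, adjusting over all genes. Of 27 members 12 were higher, where 25.5% of all genes were, and 4 were lower, where 36.4% of all genes were. Without ILC and LConly, where the FT libraries carry markers that go against their labels, 7 were higher and 5 lower. That setting drops both regions for every treatment, Control ILC among them, so the part of the FT libraries alone was not tested. With each region given equal weight 12 were higher and none was lower.

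Col11a1 had 23.9, 18.1, 18.4, 18.4 and 17.1 CPM in the 5 FT replicates and 10.3, 10.7, 11.96, 11.4 and 10.2 CPM in Control. Each such value is the gene's counts in 10 regions over the total counts of those libraries, so deeper libraries weigh more. The groups did not overlap, and the log2 change was 0.52 ± 0.05 (edgeR, adjusted p = 3e-10). Col11a2 had 25.5, 38.7, 37.7, 37.5 and 41.4 CPM in FT and 17.1, 17.1, 18.2, 20.3 and 21.2 CPM in Control, with a log2 change of 0.72 ± 0.09 (adjusted p = 8.7e-08). Its FT replicate 1 was the lowest of the FT values and still above Control. Col8a1 had 6.78, 4.40, 4.35, 4.83 and 4.69 CPM in FT and 3.25, 3.11, 2.81, 2.97 and 2.93 CPM in Control (0.56 ± 0.07, adjusted p = 7.8e-08). For Col5a3, a type V chain, FT values of 14.5, 16.1, 16.4, 17.5 and 15.3 CPM stood against Control values of 10.5, 10.2, 10.5, 10.7 and 10.7 CPM (0.37 ± 0.05). Col16a1 had 8.44, 13.0, 12.03, 12.3 and 12.7 CPM in FT and 7.26, 7.31, 7.19, 7.77 and 7.76 CPM in Control (0.44 ± 0.08), again with replicate 1 nearest to Control.

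Of the fibrillar chains called lower under FT, Col3a1 had 20.0, 16.5, 17.5, 17.2 and 15.5 CPM in FT and 18.2, 18.3, 19.7, 21.6 and 22.0 CPM in Control, overlapping through FT replicate 1. Its log2 change was -0.35 ± 0.04 (adjusted p = 3.7e-08) and -0.04 (adjusted p = 0.44) when each region had equal weight. Col1a1 had 19.1, 17.02, 16.2, 17.02 and 15.7 CPM in FT and 15.8, 16.9, 18.0, 19.2 and 18.9 CPM in Control; its change was -0.21 ± 0.04 (adjusted p = 4.2e-05), but 0.15 (adjusted p = 0.0042) with equal region weight. The summed counts weigh each region by its counts, and Col1a1 was lower under FT in mPOA, ILC, PLC and venDG and higher in BLA, NACShell, Raphe and LConly. For ILC and LConly, whose FT libraries carry markers that go against their labels, drug and region cannot be told apart. Col18a1, a basement membrane proteoglycan core that yields endostatin, changed by -0.15 ± 0.06 (adjusted p = 0.022) although its mean CPM in FT (6.95 to 8.89 CPM) was above that in Control (6.85 to 8.21 CPM). That call ended when FT replicate 1 (adjusted p = 0.074) or Control replicate 4 (0.060) was left out, and the value was 0.02 with equal weight. Col6a2 changed by -0.20 ± 0.07 and by 0.05 with equal weight.

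The call for Col1a2 rested on 1 replicate. It had 2.82 CPM in FT replicate 1 and 0.552, 0.756, 0.517 and 0.628 CPM in the other 4, against 0.470, 0.588, 0.584, 0.469 and 0.585 CPM in Control. The log2 change of 0.66 ± 0.28 (adjusted p = 0.044) became 0.09 (adjusted p = 0.66) without that replicate, and its adjusted p was also 0.062 with the replicate block. Col4a1, the main chain of the vascular basement membrane, was at 0.13 ± 0.06 (adjusted p = 0.059) and at 0.21 (adjusted p = 2.3e-05) without FT replicate 1. The lower-count members Col17a1 (0.80 ± 0.21), Col27a1 (0.55 ± 0.13), Col23a1 (0.42 ± 0.18), Col2a1 (0.35 ± 0.13), Col7a1 (0.35 ± 0.13) and Col9a2 (0.33 ± 0.07) were called higher. By class, 6 of 10 fibrillar members were higher and 2 lower under FT (median log2 change 0.36), 1 of 6 basement membrane members was higher and 1 lower (median 0.02), and 2 of 3 neuronal members were higher (median 0.42), beside a median of -0.06 over all genes.

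Under Bupropion more collagens were lower than higher, 5 of the 11 lower ones fibrillar, and the share lower was near that of all genes. Of 27 members 2 were higher, where 22.2% of all genes were, and 11 were lower, where 35.9% of all genes were. Col3a1 had 14.1, 13.4, 14.2, 14.3 and 12.4 CPM under Bupropion and 18.2, 18.3, 19.7, 21.6 and 22.0 CPM in Control, with no overlap and a log2 change of -0.50 ± 0.04 (edgeR, adjusted p = 5.3e-11). Col5a2, a type V chain, had 9.68, 10.0, 10.1, 10.2 and 8.80 CPM under Bupropion and 12.9, 13.0, 13.3, 13.6 and 12.9 CPM in Control (-0.45 ± 0.05, adjusted p = 4.9e-08). Col11a1 had 9.44, 8.94, 9.24, 8.91 and 8.94 CPM under Bupropion, below every Control value (-0.31 ± 0.05). These 3 genes separated the groups fully.

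Col1a1 changed by -0.21 ± 0.04 under Bupropion (15.0, 14.7, 15.4, 15.2 and 14.3 CPM) but by 0.05 with equal region weight. With equal weight 7 members were called, 3 of them higher, in place of 13. The cartilage-type Col2a1 fell by 0.52 on the log2 scale to 0.633 to 0.890 CPM under Bupropion, against 1.05 to 1.39 CPM in Control. Col1a2 (0.05, adjusted p = 0.90), Col4a1 (-0.06, adjusted p = 0.42) and Col18a1 (-0.13, adjusted p = 0.052) did not pass over all regions. The head-to-head pair split: Col4a4 rose by 0.52 ± 0.10 (2.45, 2.17, 1.93, 2.26 and 2.01 CPM under Bupropion, 1.25, 1.42, 1.56, 1.71 and 1.57 CPM in Control), while Col4a3 fell by 0.33 on the log2 scale (1.09 to 1.25 CPM under Bupropion and 1.14 to 1.68 CPM in Control, which overlap). A set of 5 regions, chosen after seeing the data, held none of the 6 groups that stood apart (CGC, mPOA, NACShell, PLC and Raphe). Of these, region markers are given above only for NACShell and Raphe. In the 5 regions the change of Col4a4 under Bupropion was 0.21 (edgeR, adjusted p = 0.19), and Col4a1 (-0.20) and Col18a1 (-0.48) were called lower. Col8a1 had 4.84, 5.06, 4.31, 4.73 and 4.32 CPM and rose by 0.65 ± 0.07 (adjusted p = 4.1e-09). Among fibrillar members 5 of 10 were lower and none higher (median -0.20), and 1 of 6 basement membrane members was higher and 1 lower.

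Under Desipramine, members of 5 of the 6 classes were lower, led by the microfibril chain Col6a2. Of 27 members 2 were higher, where 25.9% of all genes were, and 14 were lower, where 44.7% of all genes were, so the share of lower collagens was near that of all genes. Col6a2 had 3.18, 3.40, 3.08, 3.13 and 3.19 CPM under Desipramine and 5.53, 5.42, 5.44, 5.67 and 5.68 CPM in Control, a log2 change of -0.93 ± 0.07 (edgeR, adjusted p = 1.3e-12). The other type VI gene, Col6a4, which overlaps Rpl29 and had few counts, was at -1.35 ± 0.19. Col1a1 had 13.8, 14.7, 14.5, 13.4 and 15.1 CPM under Desipramine, below every Control value (-0.41 ± 0.04, adjusted p = 2.9e-10), and changed by -0.09 (adjusted p = 0.057) with equal region weight. Col18a1 had 6.14, 5.38, 5.64, 5.73 and 6.60 CPM under Desipramine and 6.85, 7.02, 7.89, 8.21 and 7.71 CPM in Control (-0.53 ± 0.06, adjusted p = 3.1e-09).

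Col16a1 had 5.68, 5.84, 5.69, 5.98 and 5.68 CPM under Desipramine, also below every Control value (-0.59 ± 0.08). Col3a1 had 17.9, 17.5, 17.6, 17.1 and 16.0 CPM (-0.32 ± 0.04), and -0.06 (adjusted p = 0.27) with equal weight. Col4a1 changed by -0.20 (adjusted p = 0.0044) with Desipramine values of 11.6 to 13.6 CPM that overlapped Control at 11.9 to 13.6 CPM, and Col1a2 by 0.10 (adjusted p = 0.77). Col5a1, a type V chain, fell to 1.41, 1.21, 1.39, 1.11 and 1.48 CPM under Desipramine, against 2.04, 2.53, 2.36, 2.62 and 2.66 CPM in Control (-1.03 ± 0.16), and the transmembrane Col23a1 to 0.191 to 0.458 CPM, against 0.454 to 0.619 CPM (-1.09 ± 0.20). Both type XI chains changed, and in opposite directions. Col11a1 had 16.7, 16.99, 18.1, 17.8 and 17.6 CPM under Desipramine, above every Control value (0.46 ± 0.05, adjusted p = 3.2e-09), whereas Col11a2 was called lower (-0.31, adjusted p = 0.0051) with values of 16.8 to 18.2 CPM that overlapped Control. Col8a1 was called higher at 0.17 ± 0.07 (adjusted p = 0.035), a call lost on leaving out Desipramine replicate 3, 4 or 5 or Control replicate 3, 4 or 5 (adjusted p 0.052 to 0.088), and was at 0.10 (adjusted p = 0.24) without ILC and LConly. Of the fibrillar members 1 of 10 was higher and 5 lower (median -0.26), and 4 of 6 basement membrane members were lower (median -0.31), beside a median of -0.12 over all genes.

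The 3 drug comparisons share the Control replicates. Col1a1, Col3a1 and Col6a2 were called lower in all 3 and Col8a1 higher in all 3, while Col15a1 and Col26a1 were called in none. The genes called in all 3 were also called the same way for the carrier Maltodextrin against the same Control replicates. Col1a1 was at -0.30 in Maltodextrin, Col3a1 at -0.17, Col6a2 at -0.25 and Col8a1 at 0.25, so the pattern is not particular to the drugs. The share of all genes called the same way in all 3 was not counted. Several of the drug calls did not hold with equal region weight. There Col1a1 was higher under FT (0.15) and not called under Bupropion (0.05) or Desipramine (-0.09), Col3a1 was not called under FT (-0.04) or Desipramine (-0.06), Col6a2 was not called under FT (0.05), and Col8a1 was not called under Desipramine (0.15, adjusted p = 0.17). Set against each other directly, the drugs differed in members of several classes, the transmembrane Col17a1 and Col23a1 among them. In FT, 17 members were higher than in Bupropion and 1 was lower, where 29.9% and 28.1% of all genes were. Col11a1 differed by 0.83 (edgeR, adjusted p = 3.3e-14), Col5a2 by 0.56, Col2a1 by 0.87 and Col17a1 by 0.93, and Col4a4 was the lower one at -0.58. Col5a3 (0.45), Col3a1 (0.15) and Col4a1 (0.19) were higher as well, while Col1a2 (0.62, adjusted p = 0.062), Col1a1 (0.00, adjusted p = 0.99) and Col18a1 (-0.03, adjusted p = 0.72) did not pass. In the 5 regions alone Col18a1 was called higher in FT than in Bupropion, at 0.19 (edgeR, adjusted p = 0.042). FT was higher than Desipramine for 20 members and lower for none, where 34.8% and 27.2% of all genes were. The log2 differences were 1.03 for Col16a1 and for Col11a2, 1.12 for Col27a1, 1.11 for Col7a1, 0.73 for Col6a2 and 1.50 for Col23a1. Col1a1 (0.20), Col4a1 (0.34) and Col18a1 (0.38) were higher too, and Col11a1 (0.06, adjusted p = 0.27), Col3a1 (-0.03, adjusted p = 0.58) and Col1a2 (0.56, adjusted p = 0.092) did not pass. Bupropion was higher than Desipramine for 14 members and lower for 4, where 38.5% and 32% of all genes were. Col6a2 was higher by 0.69, Col4a4 by 0.84 and Col5a1 by 0.84, and Col11a1 lower at -0.77 and Col5a2 at -0.56. Col8a1 (0.48), Col18a1 (0.40) and Col1a1 (0.20) were higher, and Col3a1 lower (-0.18). Col4a1 (0.14, adjusted p = 0.038) and Col2a1 (-0.31, adjusted p = 0.044) were called too, but both calls ended on leaving out single replicates, and the values were -0.00070 for Col4a1 in the 5 regions and 0.045 for Col2a1 with equal weight. Col1a2 was at -0.05 (adjusted p = 0.88). In the 5 regions named above, 11 were higher in Bupropion and 7 lower, and the shares of all genes there were not counted.

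Probiotics, set against the carrier Maltodextrin, had more collagens higher than lower, with the basement membrane chains among them. Of 27 members 16 were higher, where 33.8% of all genes were, and 5 were lower, where 22.1% of all genes were. With equal region weight 15 were higher and 2 lower, and without ILC and LConly 11 were higher and 6 lower. Choroid plexus markers were higher too, 8 of 9 of them. Col4a1 had 17.1, 16.5, 17.7, 19.0 and 17.7 CPM in Probiotics and 13.8, 14.1, 14.6, 14.8 and 14.8 CPM in Maltodextrin, without overlap (0.28 ± 0.06, edgeR, adjusted p = 0.00031). Col4a4 had 2.38, 2.71, 2.65, 2.47 and 2.82 CPM in Probiotics and 1.68, 1.63, 1.602, 1.76 and 1.82 CPM in Maltodextrin (0.62 ± 0.10, adjusted p = 8.5e-06), and its neighbour Col4a3 rose by 0.33. In this comparison the head-to-head pair moved the same way. Col7a1 rose by 0.58 ± 0.13, and Col18a1 was at -0.12 (adjusted p = 0.069).

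Among fibrillar chains, Col11a2 had 23.7, 24.1, 24.9, 22.9 and 23.7 CPM in Probiotics and 16.0, 14.7, 17.1, 18.3 and 17.8 CPM in Maltodextrin (0.46 ± 0.09, adjusted p = 0.00015). Col1a1 had 15.8, 15.6, 17.3, 16.1 and 16.3 CPM in Probiotics and 13.8, 14.9, 15.2, 15.4 and 14.8 CPM in Maltodextrin (0.17 ± 0.04), but 0.03 in the 5 regions alone. Col3a1 went the other way, at 13.7, 13.1, 13.4, 13.8 and 11.5 CPM in Probiotics and 16.9, 18.4, 18.7, 19.5 and 18.3 CPM in Maltodextrin (-0.42 ± 0.04, adjusted p = 1.8e-09). The 2 genes, which encode chains of fibrils that often form together, thus changed in opposite directions here. Col11a1 was at -0.17 (adjusted p = 0.0056), Col9a1 at -0.25, Col5a2 at -0.14, a call that ended on leaving out single replicates, and Col1a2 at 0.04 (adjusted p = 0.92). Col23a1 had 0.544, 0.541, 0.557, 0.617 and 0.570 CPM in Probiotics and 0.917, 0.864, 0.992, 0.821 and 0.946 CPM in Maltodextrin (-0.69 ± 0.17, adjusted p = 0.0012). Col8a1 had 4.50 to 4.96 CPM in Probiotics and 3.48 to 4.14 CPM in Maltodextrin (0.32 ± 0.07), and its value was -0.05 without ILC and LConly, where Probiotics LConly had a summed choroid plexus level of 17224 CPM against 6306 CPM in Maltodextrin LConly. By class, 6 of 10 fibrillar members were higher and 3 lower (median 0.19), and 4 of 6 basement membrane members were higher with none lower (median 0.30), beside a median of 0.07 over all genes.

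The carrier itself, Maltodextrin against Control, had 4 members higher and 8 lower, where 17.5% and 31% of all genes were. In the 5 regions 6 were higher and 7 lower, and the shares of all genes there were not counted. Col11a1 had 14.7, 14.1, 15.2, 15.5 and 13.6 CPM in Maltodextrin, above every Control value (0.27 ± 0.05, edgeR, adjusted p = 6.3e-05). Col1a1 had 13.8 to 15.4 CPM in Maltodextrin and 15.8 to 19.2 CPM in Control (-0.30 ± 0.04, adjusted p = 4.3e-07), but -0.04 in the 5 regions. Col5a3 (-0.24), Col16a1 (-0.33), Col2a1 (-0.57) and Col6a2 (-0.25) were lower as well. Col3a1 was called lower (-0.17 ± 0.04, adjusted p = 0.0014) but was at 0.10 without ILC and LConly and at 0.31 (adjusted p = 1.5e-06) in the 5 regions. Col1a2 was at 0.29 (adjusted p = 0.41) and at 0.81 (adjusted p = 0.018) in the 5 regions. Col23a1 rose by 0.46 and Col8a1 by 0.25, the last at 0.15 (adjusted p = 0.086) without ILC and LConly, and Col17a1 was at 0.51 ± 0.21, called with adjusted p = 0.045 and lost on leaving out single replicates. No basement membrane member was called, Col4a1 being at 0.04 ± 0.06 (adjusted p = 0.57) and Col18a1 at -0.01 (adjusted p = 0.90), and 5 of 10 fibrillar members were lower with 1 higher (median -0.20).

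**Figure D3:**
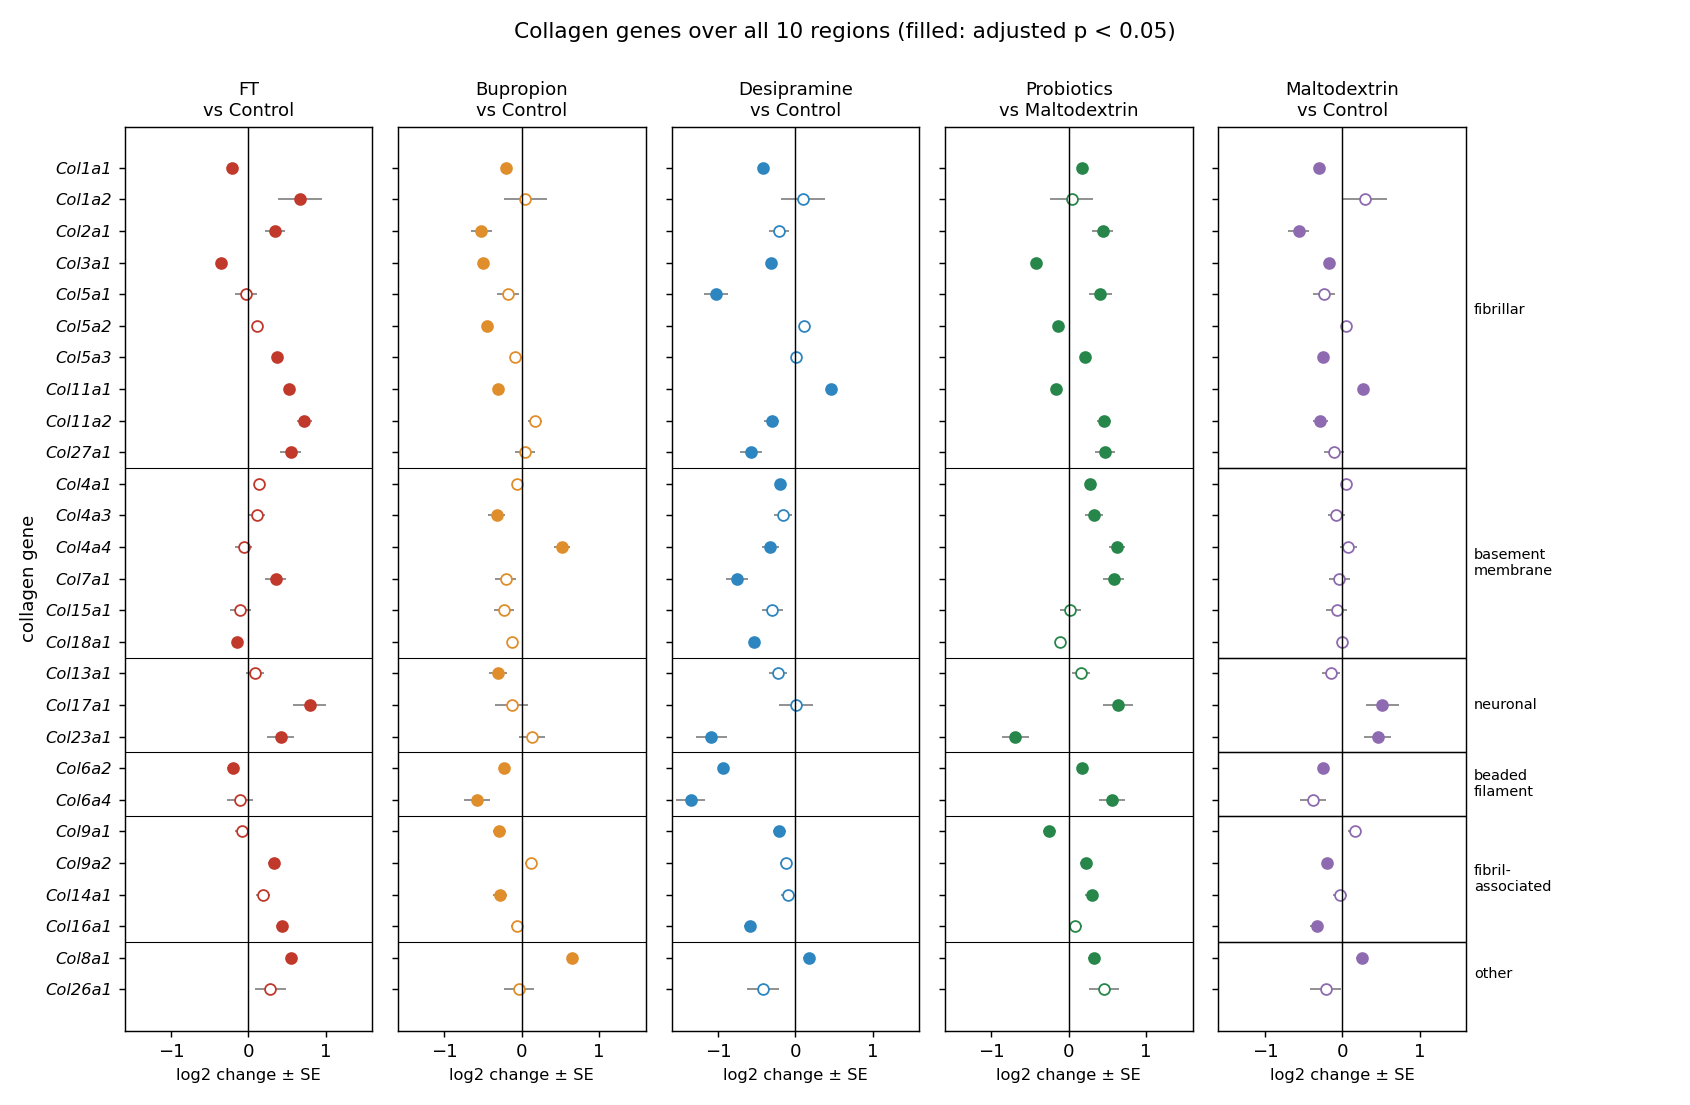
Fitted log2 change over all 10 regions (x axis, point ± SE) of each collagen gene (rows, by class) in the 5 comparisons (panels), from 5 treatment replicates a group; filled points have an adjusted p under 0.05. Under Desipramine Col6a2 and Col6a4 lie at -0.93 and -1.35, and in Probiotics against Maltodextrin 4 of the 6 basement membrane members are filled to the right of 0.

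Within single regions the changes were larger than over all regions and often went in opposite directions. In FT, more members were higher than lower in Raphe, NACShell, BLA and PLC, and in ILC and LConly, whose FT libraries carry markers that go against their labels, while in mPOA, CGC and dorDG more were lower than higher and in venDG the counts were equal. Of 224 collagen and region pairs that passed the count filter, FT had 84 higher and 29 lower, where 27.1% and 26.3% of all gene and region pairs were. Bupropion had 45 higher and 55 lower, where 22.9% and 23.4% were, and Desipramine 39 higher and 71 lower, where 26.4% and 27.9% were. Probiotics had 75 pairs higher and 34 lower than Maltodextrin, where 21.7% and 21.1% were. Maltodextrin had 45 higher and 44 lower than Control, where 18.4% and 19.5% were.

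The counts in the 5 regions that held none of the groups that stood apart can be set beside these. Of 112 pairs there, FT had 40 higher and 14 lower, where 25.2% and 23.3% of all pairs were. Bupropion had 14 higher and 34 lower there, where 22.8% and 23.1% were, Desipramine 17 and 34, where 27.4% and 29.2% were, and Probiotics 41 and 17, where 20.2% and 18.5% were. By class over all regions, FT had 40 of 89 fibrillar pairs higher and 15 lower, 16 of 53 basement membrane pairs higher and 5 lower, and 7 of 22 neuronal pairs higher and 1 lower. Of all gene and region pairs, 27.1% were higher and 26.3% lower in FT. The FT class counts include ILC and LConly, whose FT libraries carry markers that go against their labels. Desipramine had 4 of 53 basement membrane pairs higher and 16 lower, and 7 of 11 beaded filament pairs lower with none higher. Of all pairs, 26.4% were higher and 27.9% lower there, so the share of lower basement membrane pairs was near that of all pairs. Probiotics had 18 of 53 basement membrane pairs higher and 7 lower, where 21.7% and 21.1% of all pairs were.

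In mPOA, more collagens were lower than higher under each drug, and the FT counts were near those of all genes. Bupropion had 15 of 24 members lower there and none higher, where 18.6% and 20.7% of all genes were, and Desipramine had 14 lower and 3 higher, where 32.5% and 32.2% were. FT had 7 lower and 4 higher, where 23.3% and 25.5% were. Of the 10 fibrillar members there, 3 were lower and 2 higher in FT, 7 lower and none higher in Bupropion, and 5 lower and 2 higher in Desipramine. Of the 6 basement membrane members, 3 were lower and 1 higher in FT, 3 lower and none higher in Bupropion, and 4 lower and none higher in Desipramine. Col1a1 in mPOA had 32.6, 25.9, 26.7, 25.5 and 25.8 CPM in FT, 25.3, 24.5, 25.4, 23.9 and 23.3 CPM in Bupropion and 24.3, 21.7, 26.3, 23.0 and 26.0 CPM in Desipramine, against 49.4, 46.2, 54.5, 52.2 and 47.9 CPM in Control. The log2 changes were -1.03, -0.99 and -1.28 in that order, and no drug value reached a Control value. Col3a1 in mPOA changed by -1.07 in FT, -1.06 in Bupropion and -0.82 in Desipramine. It also differed by -1.08 between Probiotics (41.9, 40.0, 38.3, 44.4 and 31.3 CPM) and Maltodextrin (78.3, 80.0, 73.1, 78.9 and 77.0 CPM), and Maltodextrin was above Control by 0.51.

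Col18a1 in mPOA had 11.6, 14.0, 11.5, 12.9 and 9.91 CPM in FT and 9.44, 7.69, 7.64, 10.5 and 9.28 CPM in Bupropion, against 23.6, 22.1, 26.5, 23.3 and 23.8 CPM in Control. Col9a1 in mPOA, a fibril-associated chain, had 0.525, 0.534, 0.170, 0.386 and 0.368 CPM in Bupropion and 2.81, 1.23, 1.54, 1.13 and 1.605 CPM in Control (-1.97 ± 0.31). Other cell markers moved with these genes in mPOA. Summed fibroblast markers were at 253 CPM in FT, 269 CPM in Bupropion, 227 CPM in Desipramine, 339 CPM in Probiotics and 505 CPM in Maltodextrin, against 400 CPM in Control. Summed mural cell markers were at 230, 263 and 238 CPM in the 3 drugs in the same order, against 525 CPM in Control. Their part in the result was not tested.

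In Raphe and NACShell, most members were higher under FT. In Raphe FT had 17 of 22 members higher and none lower, where 31.1% and 30.1% of all genes were, and in NACShell 14 of 21 higher and none lower, where 25.5% and 21.1% were. The other drugs had counts nearer to those of all genes in NACShell, 5 higher and 3 lower of 21 in Bupropion, where 24.4% and 23.6% were, and 4 higher and 2 lower in Desipramine, where 20% and 21.3% were. In Raphe Bupropion had 6 of 22 members higher and none lower, where 21.5% and 22.2% of all genes were. Desipramine had 7 higher and none lower there, where 28.8% and 31.1% were. Maltodextrin had 1 higher and 5 lower, where 15.4% and 18% were. Col11a1 in NACShell had 53.98, 38.1, 45.5, 41.5 and 38.5 CPM in FT and 20.0, 18.6, 23.1, 18.0 and 18.7 CPM in Control (log2 change 1.00). Col11a1 in Raphe had 29.8, 18.8, 23.6, 18.9 and 15.3 CPM in FT and 15.7, 18.5, 23.0, 16.5 and 18.2 CPM in Desipramine, against 6.22, 5.46, 9.04, 8.19 and 6.25 CPM in Control, log2 changes of 1.22 and 1.10. Col1a1 in NACShell had 15.5, 15.9, 15.2, 17.1 and 14.3 CPM in FT and 9.31, 5.12, 5.56, 7.30 and 7.44 CPM in Control (1.05 ± 0.11). Col1a1 thus had opposite changes in mPOA and NACShell, both regions that held none of the groups that stood apart.

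In LConly each of the 4 groups compared with Control had more members higher than lower. Probiotics was not compared with Control, and the FT LConly libraries carry markers that go against their label. FT had 15 higher and 1 lower of 22, where 36.6% and 37.5% of all genes were, Bupropion 14 and none, where 27.8% and 31.0% were, Desipramine 9 and none, where 26.9% and 27.5% were, and Maltodextrin, the carrier, 14 and none, where 22.2% and 23.6% were. These 4 counts share the Control LConly libraries. Col6a2 in LConly had 3.68, 3.93, 4.25, 3.46 and 3.75 CPM in Bupropion and 1.17, 0.788, 1.32, 1.52 and 1.85 CPM in Control (1.54 ± 0.17), and Col11a2 had 21.7, 20.8, 23.7, 21.3 and 22.2 CPM in Bupropion and 6.58, 5.91, 8.19, 8.14 and 9.91 CPM in Control (1.51 ± 0.14). Col27a1, a fibrillar chain of cartilage, had 2.56, 3.07, 2.36, 2.43 and 2.15 CPM in Desipramine LConly and 0.833, 1.02, 1.32, 1.08 and 0.556 CPM in Control LConly (1.10 ± 0.28). In Maltodextrin LConly Col11a1 had 22.6, 14.4, 17.03, 17.6 and 15.8 CPM, against 5.58, 9.06, 7.69, 5.97 and 10.9 CPM in Control (1.01 ± 0.14).

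The largest FT changes were in ILC and LConly, where the libraries carry the markers of the other region. Col11a1 in ILC had 28.9, 31.0, 26.1, 26.1 and 23.6 CPM in FT and 2.25, 2.83, 2.53, 1.29 and 2.25 CPM in Control (3.16 ± 0.14), and in LConly its change was -1.01. Col9a2 in ILC had 11.3 to 15.2 CPM in FT and 1.06 to 1.696 CPM in Control (2.89 ± 0.17). Col27a1 in LConly had 4.33, 12.2, 9.32, 11.8 and 11.4 CPM in FT (3.08 ± 0.24). Col3a1 in ILC had 11.3 to 15.9 CPM in FT and 35.3 to 50.7 CPM in Control (-2.02 ± 0.10), and Col1a1 changed by -1.38 in ILC and by 1.96 in LConly. Since the libraries go against their labels, drug and region cannot be told apart in these values. The other treatments were compared with Control ILC, which stood apart, as well. Col8a1 in ILC had 4.99 to 6.51 CPM in Bupropion and 1.29 to 2.12 CPM in Control (1.68 ± 0.15). Col4a3 in ILC had 1.86, 1.92, 1.39, 1.16 and 2.19 CPM in Desipramine and 1.55, 1.01, 1.04, 1.86 and 2.31 CPM in Maltodextrin, against 0.394, 0.0727, 0.845, 0.543 and 0.926 CPM in Control (1.14 ± 0.36 in both).

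In BLA more members were higher than lower under FT, and more lower than higher under the other drugs. FT had 9 members higher and 5 lower of 25, where 21.7% and 33% of all genes were, Bupropion 5 and 9, where 22.9% and 27.1% were, and Desipramine 3 and 11, where 19.1% and 24.8% were. In BLA Col3a1 had 5.53, 5.09, 6.35, 7.70 and 5.90 CPM in Bupropion and 24.4, 26.7, 24.0, 24.8 and 26.8 CPM in Control (-1.93 ± 0.08), where Control BLA carries high antigen presentation genes. Col23a1 in BLA had 0.854, 0.382, 1.03, 0.335 and 1.00 CPM in FT and 2.22, 1.42, 2.83, 2.65 and 2.497 CPM in Control (-1.64 ± 0.33), and it had 1.12, 0.896, 1.56, 2.14 and 1.42 CPM in Probiotics and 3.87, 2.75, 3.72, 3.29 and 3.24 CPM in Maltodextrin (-1.30 ± 0.26). Neither pair of groups overlapped. Col6a4 in BLA had 0.381, 0.517, 0.0730, 0.409 and 0.404 CPM in Bupropion and 0.270, 0.284, 0.606, 0.399 and 0.382 CPM in Maltodextrin, against 2.22, 2.32, 1.62, 1.99 and 1.58 CPM in Control (-2.33 ± 0.43 and -2.19 ± 0.43). In Desipramine BLA Col6a4 was at 0 in 3 libraries and at 5.04 CPM, a single count, in the shallow replicate 3, so its fitted value of -3.89 ± 0.61 depends on libraries at 0 and gives no fold.

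In dorDG Desipramine had 11 members lower and none higher, where 17.3% and 15.8% of all genes were. Col5a1 in dorDG had 1.21, 0.475, 0.401, 0.722 and 0.917 CPM in Desipramine and 2.35, 5.02, 2.56, 2.82 and 2.54 CPM in Control (-2.22 ± 0.52), and Col23a1 had 0, 0.594, 0.267, 0.120 and 0.131 CPM in Desipramine and 1.36, 2.07, 1.19, 1.79 and 0.897 CPM in Control (-2.37 ± 0.57). Col23a1 in dorDG was also low in Probiotics (0.328, 0.777, 0.0814, 0 and 0.409 CPM) against Maltodextrin (2.06, 2.25, 2.35, 1.49 and 3.14 CPM). Probiotics dorDG had a low Prox1, as said above, and there Col7a1 rose to 2.13, 4.24, 2.03, 5.02 and 9.62 CPM, against 0.485, 1.13, 1.84, 1.04 and 0.998 CPM in Maltodextrin (2.15 ± 0.45). Col4a4 in dorDG was called lower in Probiotics (-1.33 ± 0.44, adjusted p = 0.0076), a call lost without 1 replicate (adjusted p = 0.062). Maltodextrin dorDG had no member called against Control in either direction, where 0.612% of all genes were higher and 0.327% lower.

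In PLC more members were lower than higher against Control in Maltodextrin, the carrier, and also in Bupropion and Desipramine. There 13 members were lower in Maltodextrin than in Control and none was higher, where 26.3% and 22.8% of all genes were, and 15 were higher in Probiotics than in Maltodextrin with none lower, where 27.4% and 19.6% were. The 2 counts share the Maltodextrin libraries. Against the same Control libraries, Bupropion had 8 of 22 members lower and 2 higher, where 24.3% and 22.8% of all genes were. Desipramine had 9 lower and 3 higher, where 30.5% and 29.2% were, and FT 2 lower and 4 higher, where 21.3% and 21.4% were. Col5a1 in PLC had 2.14, 2.67, 3.86, 2.60 and 2.84 CPM in Probiotics, 1.01, 0.996, 0.867, 0.595 and 0.312 CPM in Maltodextrin and 3.29, 2.67, 3.76, 4.58 and 3.34 CPM in Control. Its log2 differences were 1.68 ± 0.28 for Probiotics against Maltodextrin and -2.13 ± 0.26 for Maltodextrin against Control. Col11a2 in PLC had 20.2, 16.9, 18.6, 17 and 16.4 CPM in Probiotics, 7.88, 8.05, 7.37, 6.90 and 6.93 CPM in Maltodextrin and 23.9, 21.3, 22.1, 27.8 and 29.97 CPM in Control. Col6a2 in PLC had 2.01, 0.920, 2.43, 1.55 and 1.09 CPM in Maltodextrin and 6.03 to 7.63 CPM in Control (-2.02 ± 0.20). For Col5a1 and Col11a2 the Maltodextrin libraries lay below those of both Probiotics and Control, and for Col6a2 below those of Control.

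Probiotics also had 13 members higher and none lower in ILC, where 26.1% and 24.6% of all genes were, and 13 higher and none lower in Raphe, where 19.6% and 21.6% were. Col27a1 in ILC had 6.05, 7.60, 8.47, 9.16 and 12.4 CPM in Probiotics and 2.33, 1.89, 1.86, 2.48 and 1.65 CPM in Maltodextrin (1.94 ± 0.23). CGC had 1 member higher and 9 lower in Probiotics, where 16.0% and 16.1% of all genes were. In venDG 1 was higher and 7 were lower, where 25.6% and 27.2% were. BLA had 3 of 25 members higher and 4 lower in Probiotics, where 11.4% and 11.4% of all genes were. For mPOA the counts were 3 higher and 5 lower of 24, where 17.7% and 17.3% were. Both were near the shares of all genes. Col17a1 in NACShell had 1.12, 2.17, 0.543, 2.02 and 1.59 CPM in Maltodextrin and 0.388, 0.476, 0.667, 0.212 and 0.687 CPM in Control (1.39 ± 0.40), overlapping through 1 library and lost without Maltodextrin replicate 4 (adjusted p = 0.074) or 2 (0.051).

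Col8a1 and the choroid plexus genes differed together in several groups. In venDG it had 2.71, 1.696, 0.873, 1.88 and 1.89 CPM in FT and 6.86, 9.80, 5.59, 6.79 and 6.22 CPM in Control (-2.19 ± 0.21), where summed choroid plexus markers were at 759 CPM in FT and 10076 CPM in Control. In dorDG, chosen after its values were seen, it had 3.30, 4.002, 3.17, 4.82 and 3.30 CPM in FT and 0.744, 0.443, 0, 0 and 0.150 CPM in Control, where choroid plexus markers summed to 5839 CPM in FT and 39 CPM in Control. Their part in the change of Col8a1 was not tested. In ILC, where Col8a1 was higher under Bupropion, choroid plexus markers summed to 27.7 CPM in Bupropion and 33.0 CPM in Control.

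The effect of treatment differed between regions for most members. A test of the difference itself, with 9 interaction terms, called 24 of 26 members for FT, where 92.6% of all genes were called, 25 of 27 for Bupropion (90.2%), 22 of 26 for Desipramine (87.2%), 20 of 26 for Probiotics against Maltodextrin (82.3%) and 24 of 27 for Maltodextrin (89.8%). These shares were near those of all genes. Col15a1, a chain of the outer basement membrane zone, was not called for FT, Bupropion or Desipramine. Col23a1 was not called for Bupropion or Desipramine, and Col1a2, Col2a1, Col6a4, Col9a1, Col14a1 and Col17a1 were not called for Probiotics. In the 5 regions alone, 15 members were called for Maltodextrin.

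**Figure D4:**
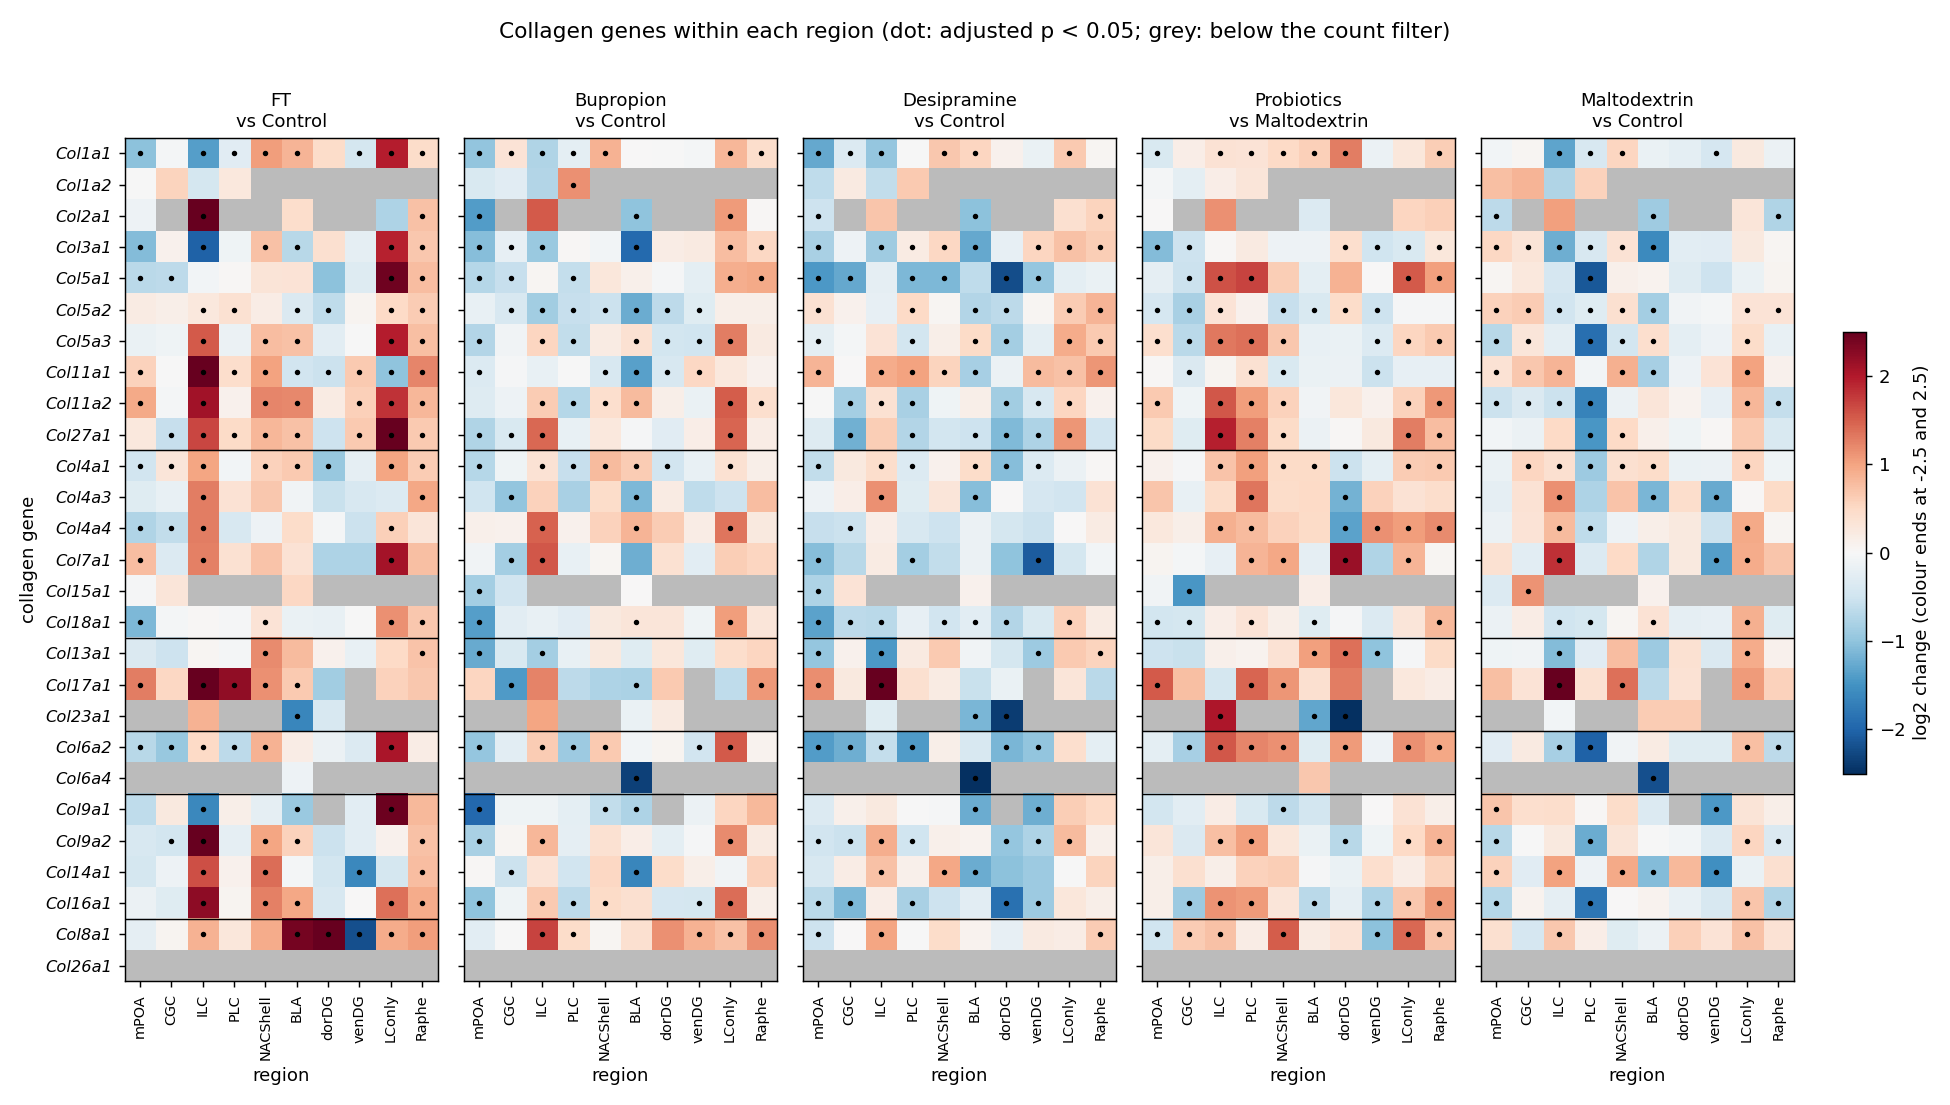
Fitted log2 change of each collagen gene (rows, by class) in each region (columns) for the 5 comparisons (panels), from 5 libraries a group; dots mark an adjusted p under 0.05 and grey cells were below the count filter. The mPOA column of Bupropion holds 15 dots on the lower side, and the PLC columns of Maltodextrin (13 lower) and Probiotics (15 higher) are opposite in colour.

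Genes that work with collagens changed in both directions. The counts are to be read beside the shares of all genes called, which were 25.5% higher and 36.4% lower under FT, 22.2% and 35.9% under Bupropion, 25.9% and 44.7% under Desipramine, and 33.8% and 22.1% in Probiotics. Under FT, 2 of 16 genes of collagen modification and folding were higher and 5 lower, among them P3h3, a prolyl 3-hydroxylase family member, at 0.70 ± 0.05 and P4hb, the protein disulfide isomerase subunit of prolyl 4-hydroxylase, at -0.36 ± 0.03. Of 11 degradation genes 6 were higher and 3 lower under FT, with the inhibitors of metalloproteinases Timp3 and Timp2 both at 0.43. Under Desipramine 9 of the 16 modification genes were lower and 3 higher, and 7 of 11 processing and crosslinking genes were lower with none higher, led by Pcolce, the enhancer of procollagen C-proteinase, at -0.87 ± 0.07 and the lysyl oxidase family member Loxl1 at -0.77 ± 0.07. Bupropion had 1 modification gene higher and 7 lower, with Serpinh1, the collagen chaperone, as the higher one at 0.38 ± 0.03. In Probiotics 7 of 10 other basement membrane genes were higher and none lower, such as the laminin chains Lamc3 (0.41 ± 0.07) and Lama1 (0.35 ± 0.07), beside the 4 of 6 basement membrane collagens. Of 9 collagen receptor genes, 3 were higher and 3 lower in Bupropion, and 5 were higher and 3 lower in Probiotics.

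Markers of the cells that could bring collagen RNA moved as well, to be read beside the same shares over all genes. Under FT 10 of 15 fibroblast markers were lower and 2 higher, 9 of 12 mural cell markers were lower and 1 higher, 9 of 12 endothelial markers were lower and 1 higher, and 7 of 9 choroid plexus markers were higher. Under Desipramine 11 of 15 fibroblast markers were lower and 2 higher, and 11 of 12 mural cell markers were lower, where 44.7% of all genes were. Under Bupropion, where 35.9% of all genes were lower, 8 of 15 fibroblast markers were lower and 1 higher. Probiotics had 8 fibroblast markers lower and 5 higher than Maltodextrin, and 5 mural cell markers higher and 2 lower. Of 9 choroid plexus markers, 6 were higher in Bupropion than in Control, 8 in Probiotics than in Maltodextrin and 8 in Maltodextrin than in Control, with none lower, and 3 were lower and none higher in Desipramine. Their sum was at 1457 CPM in FT, 1483 CPM in Bupropion, 870 CPM in Desipramine, 2931 CPM in Probiotics and 2091 CPM in Maltodextrin, against 1014 CPM in Control. With counts pooled over the 10 regions, summed mural cell markers were at 171 CPM in FT, 188 CPM in Bupropion, 189 CPM in Desipramine, 217 CPM in Probiotics and 226 CPM in Maltodextrin, against 228 CPM in Control. Summed fibroblast markers were at 201.3, 183, 173, 176 and 185 CPM in the same order, against 193 CPM in Control. No fibroblast, mural or endothelial marker was at 0 in any group. Their part in the collagen changes was not tested.

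Across the 60 group means, the collagens that varied together were not in general those of 1 class. The correlations below are of log2(CPM + 0.5) and describe these groups, which share libraries, depth and tissue makeup. Col1a1 was most like Col3a1 (r = 0.90, and 0.94 over the 54 groups other than the 6 that stood apart), and Col1a2 most like Col1a1 (0.85). Col11a2 was most like Col16a1 (0.83) and Col9a2 most like Col16a1 (0.81), and Col5a3 was most like Col11a2 (0.81). Col5a1 was most like Col6a2 (0.80). Col9a1 and Col9a2, chains of the same type IX molecule, had an r of -0.13, and the head-to-head pair Col4a3 and Col4a4 had 0.42. The median r was 0.371 over 71 pairs within a class and 0.359 over 280 pairs between classes. Beside the marker sums, Col1a1 had r = 0.82 with fibroblast markers and Col3a1 0.71, Col2a1 had 0.75 with markers of oligodendrocyte precursors and -0.77 with those of excitatory neurons, Col9a2 had 0.75 with oligodendrocyte precursors, and Col5a2 had 0.72 with astrocytes. Col3a1 and Col5a2, whose genes lie 38190 bases apart on chromosome 9, were lower together under Bupropion and in Probiotics against Maltodextrin, while under FT and Desipramine Col3a1 was called lower and Col5a2 was not called.

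**Figure D5:**
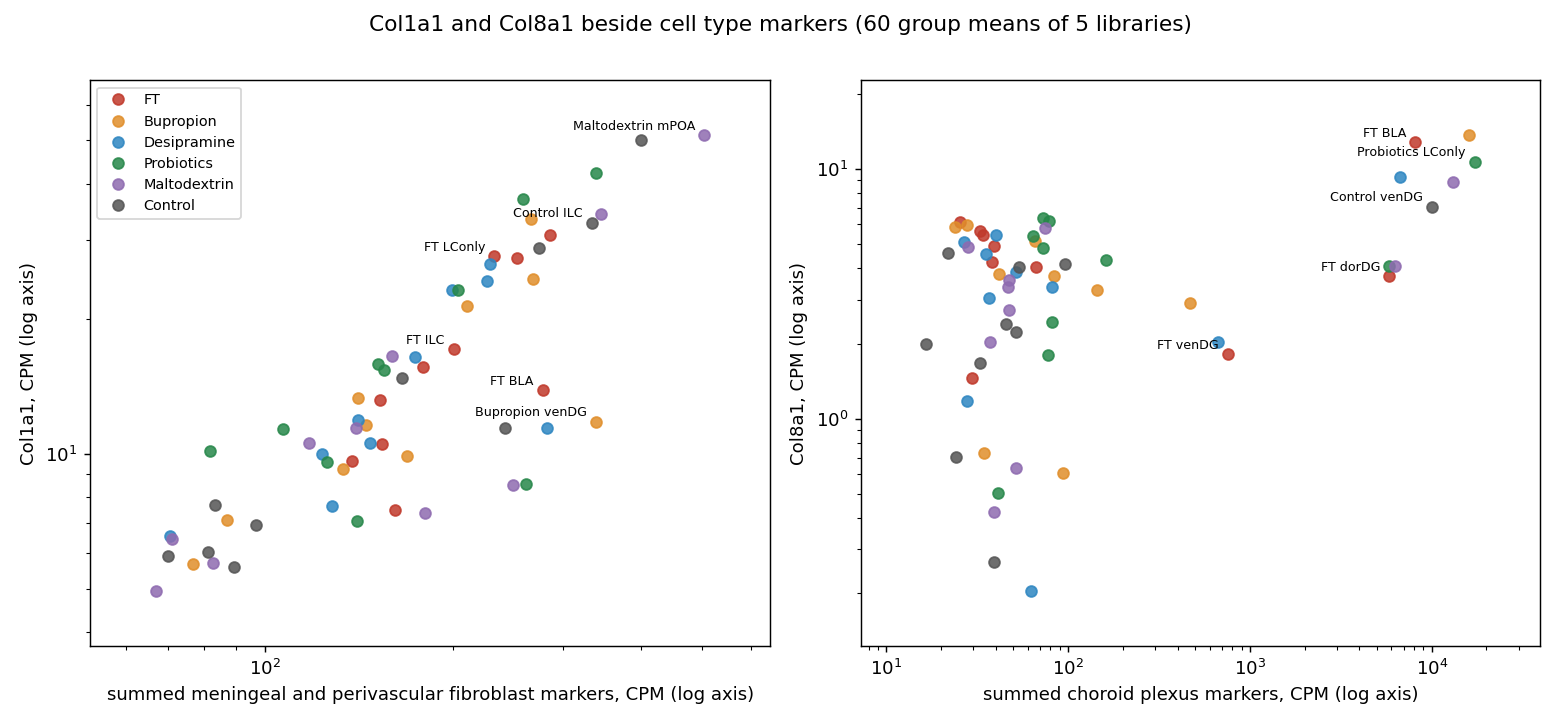
Mean CPM of Col1a1 against summed fibroblast marker CPM (left) and of Col8a1 against summed choroid plexus marker CPM (right) in the 60 groups, each point the mean of 5 libraries, coloured by treatment, on log axes. Maltodextrin mPOA lies at the upper right of the left panel at 505 CPM of fibroblast markers, and in the right panel FT venDG lies at 759 CPM of choroid plexus markers, against 10076 CPM in Control venDG.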

How the data were processed

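The authors deposited 1 table of raw counts per gene symbol for all 300 libraries. Per the submitters' processing notes, reads were handled with FastQC, STAR and HTSeq on rn6, with no version and no strand setting of the counting given in the sources used here. Without that setting, reads of Col1a1 and of Col6a4 cannot be told apart from those of the overlapping genes Sgca and Rpl29.

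Treatments were compared with edgeR 4.0.16 in R 4.3.3: TMM scaling, filterByExpr, quasi-likelihood F test, Benjamini-Hochberg adjustment over all genes tested, called at an adjusted p under 0.05. Counts were summed over the 10 regions of each treatment replicate (30 sums, with an offset for the depth of each region), fitted within each region (30 libraries), and tested for a difference between regions (100 libraries, replicate as a block). Regions were compared on 60 group sums with treatment as a term. SE was taken from the F statistic. CPM use library totals, so a fitted change and a ratio of mean CPM can differ, also in sign.

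Alternatives were DESeq2 1.42.0, DESeq2-type size factors, limma 3.58.1 with equal region weight, no count filter, the compared groups only, pooled Control and Maltodextrin as reference, left-out replicates, shallow libraries or regions, and the replicate block. For the alternatives the share of all genes called was not counted. The members, classes and lists were chosen with earlier results of these data known. Named throughout were Col1a1, Col1a2, Col3a1, Col4a1, Col18a1 and Col11a1; up to 4 called members in each direction with the smallest adjusted p and a mean of at least 1 CPM; 3 pairs in each direction by region; and the 3 highest and 3 lowest called members of a region. Among 600 pairs of libraries of 1 group none was a duplicate. The all-region fit, the fit within 1 region (BLA), the interaction fit and the region fit were also run on simulated counts. The simulated libraries were independent with 1 fixed spread, unlike the real ones, and the alternatives were not simulated.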

Additional observations from a re-analysis of the deposited data

Results flagged for a closer look

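The values of single replicates, as CPM from counts pooled over 10 regions, stood far from the other 4 in 14 of 102 groups of 5 examined. By chance about 1 in 20 groups is flagged. Of these, 9 were FT replicate 1, whose 10 libraries were all shallow (3511756 to 4807308 counts). In FT replicate 1, Col11a1 was at 23.9 CPM, Col1a2 at 2.82 CPM, Col5a2 at 21.1 CPM, Col8a1 at 6.78 CPM and Col9a1 at 2.72 CPM, above the other 4. In the same replicate Col11a2 was at 25.5 CPM, Col16a1 at 8.44 CPM, Col27a1 at 2.87 CPM and Col2a1 at 0.983 CPM, below the other 4. The other values that stood off were Col18a1 at 6.50 CPM and Col2a1 at 0.633 CPM in Bupropion replicate 2, Col27a1 at 3.02 CPM in Desipramine replicate 5, and Col17a1 at 2.42 CPM and Col2a1 at 1.43 CPM in Probiotics replicate 5.

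The change of a member differed between regions, by a test of the interaction, for 24 members in FT, 25 in Bupropion and 22 in Desipramine, each against Control, for 20 in Probiotics against Maltodextrin and for 24 in Maltodextrin against Control.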

How the results depend on the processing

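Most named values kept their direction and their side of the threshold: of the named log2 changes recomputed under alternatives, 2596 kept both, 31 passed the threshold newly, 123 no longer passed it and 10 reversed. With each region weighted equally, members called in Bupropion against Control fell to 7 in place of 13, and Col1a1 under FT (0.15), Col18a1 under FT (0.024), Col6a2 under FT (0.046), Col1a1 under Bupropion (0.048) and Col2a1 in Bupropion against Desipramine (0.045) turned positive. Without ILC and LConly, Col8a1 in Probiotics against Maltodextrin was at -0.050 and Col3a1 in Maltodextrin against Control at 0.10. In CGC, mPOA, NACShell, PLC and Raphe only, chosen after seeing the data, Col3a1 in Maltodextrin against Control was at 0.31, Col18a1 in FT against Bupropion at 0.19, Col4a1 in Bupropion against Desipramine at -0.00070, and 15 members in place of 24 differed between regions for Maltodextrin. With 300 libraries and the replicate block, 179 calls in place of 113 were made against the other 9 regions. The cause was not tested.

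Leaving out 1 replicate at a time gave 13 to 16 members for FT, 12 to 14 for Bupropion, 14 to 17 for Desipramine, 18 to 21 for Probiotics and 9 to 11 for Maltodextrin, 16 to 19 for FT against Bupropion, 18 to 21 for FT against Desipramine and 16 to 19 for Bupropion against Desipramine. Pairs by region numbered 101 to 108 for FT, 85 to 95 for Bupropion, 92 to 108 for Desipramine, 95 to 102 for Probiotics and 71 to 82 for Maltodextrin. Members that differed between regions numbered 24 to 26 and calls against the other 9 regions 89 to 123, leaving out 1 treatment or 1 replicate number at a time. None of the named values reversed on leaving out a replicate.

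Same-numbered replicates were not treated as pairs, since in no comparison did all 5 numbers correlate above 0.1: their deviations correlated at -0.13 to 0.31, above 0.1 for 2 to 4 of 5 numbers, and 1 to 4 of 5 correlated best with their own number, 4 of them in Bupropion against Control, a hint from the data and not the design. With the replicate block, 16 members were called for FT, 13 for Bupropion, 16 for Desipramine, 21 for Probiotics and 13 for Maltodextrin. Depth limits members of few counts: Col26a1 passed the count filter in no region, and Col1a2 in 4.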
